A study of Equus caballus with 3 samples.

Results

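The cells described here are equine MSCs caught with transcripts of DNA replication but few of mitosis. They are kept barcodes with at least 4 UMIs summed over *PCNA* and *MCM5* and at most 1 UMI summed over *TOP2A*, *MKI67*, *UBE2C*, *CCNB1* and *CDC20*, and they are called S cells below. A UMI (unique molecular identifier) marks a captured transcript, and a kept barcode is one with 2500 to 15000 UMIs and at most 3% of them on the mitochondrial chromosome. Of 16301 kept cells, 306 met the rule (1.88%), 90 from adipose tissue (AT), 165 from bone marrow (BM) and 51 from peripheral blood (PB). *MKI67* is not a symbol of the matrices, so 6 of the 7 genes of the rule were measured, and whether a row with only an Ensembl identifier holds it is not known here. S cells were compared with cells of the same library that held 0 UMIs of all measured rule genes (2735 in AT, 2334 in BM and 2816 in PB, called zero cells). For contrast, 211, 140 and 117 mitotic cells were taken, defined here by the mirrored rule of at least 4 UMIs of the mitotic genes and at most 1 of *PCNA* and *MCM5*.

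The MSCs of all 3 libraries came from the same warmblood mare, aged 10 years, and were expanded in culture without a treatment before droplet capture with a 3′ UMI kit. AT, BM and PB each gave a single library, so that the source and its library cannot be told apart and differences between sources were not tested. S and zero cells were told apart by transcripts of the cells compared, so that their comparison within each library is also given without a test. All values are therefore descriptions, and the 95% intervals (exact Poisson for sums of UMIs, exact conditional for folds, Clopper-Pearson for shares) cover counting error only. The source of each library was taken from its title, since the source field of all 3 samples names mononuclear blood cells.

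Before a cell divides it copies its genome once, in S phase. In late mitosis and G1, origins are licensed by loading of the MCM2–7 helicase with CDC6 and CDT1. In S phase, helicases open the DNA, primase and polymerases copy it, the clamp PCNA holds the polymerases on the template and ribonucleotide reductase supplies deoxynucleotides. Genes of this machinery are largely switched on together by E2F transcription factors after cyclin D and cyclin E kinases act on the retinoblastoma protein. Genes for spindle assembly and chromosome segregation follow in G2. MSCs are plastic-adherent stromal cells that divide in culture, so that cells of every phase are found in one dish.

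S cells were found in all 3 sources. Their share was 1.67% (95% interval 1.34 to 2.04%) in AT, 2.96% (2.53 to 3.44%) in BM and 0.959% (0.715 to 1.26%) in PB. The median S cell of AT held 9050.5 UMIs, that of BM 8558 and that of PB 10529, against 6815, 6090.5 and 7296.5 for the median zero cell, so that S cells were the deeper class in each library. The rule asks for raw UMIs in S cells and for none in zero cells, so this gap can follow from the rule. After every kept cell was thinned to 2500 UMIs the shares were 0.315%, 0.896% and 0.132%. Thinned to 5000 UMIs, among the 4484, 4636 and 4575 kept cells with at least 5000, they were 1.18%, 3.06% and 0.525%. BM had the highest share at each depth. Over all UMIs of the kept cells, *PCNA* reached 77.5 CPM in AT, 177 in BM and 80.1 in PB. *MCM5* reached 21.9, 43.1 and 18.1 CPM. Both genes define the S cells, and their levels are given for description.

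The rule leaves out most cells with many *PCNA* and *MCM5* UMIs. At least 4 were found in 246 AT, 805 BM and 223 PB cells, of which 156, 640 and 172 held more than 1 mitotic UMI (63.4%, 79.5% and 77.1%). Among S cells, 45 of 90, 92 of 165 and 24 of 51 held 1 mitotic UMI and the others none. The median S cell held 5, 6 and 5 UMIs of the pair in AT, BM and PB, and the highest held 13, 13 and 19. *PCNA*, the sliding clamp, gave 62.3%, 78.2% and 71.9% of them. These values follow from the rule and are given for description.

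Libraries share barcodes. The AT and PB matrices had 5788 barcodes in common, of 6180 in PB, and all 51 barcodes of the PB S cells were also in the AT matrix, where they held 525 to 1541 UMIs, a median of 10.7% of their UMIs in PB, and a median of 0 rule UMIs. None of them was kept in AT. Whether reads were shared between these libraries was not tested. Barcodes kept in both libraries numbered 37 for AT and PB, 42 for AT and BM and 38 for BM and PB, and no barcode was an S cell in more than one library. Without barcodes kept in more than 1 library the number of genes at least 2-fold higher in S cells, described below, was 227 in place of 234.

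The label was checked on genes outside the rule. The 5 lists of replication genes (origin licensing, fork and checkpoint, deoxynucleotide supply, chromatin replication, replication-coupled repair) hold 88 genes, of which 84 were in the matrices. Their summed UMIs made up 4893 CPM (95% interval 4742 to 5048) of S cells in AT, against 1158 CPM in zero cells, where CPM (counts scaled to 1000000) uses all UMIs of the class except those of the rule genes. In BM the sum was 4742 against 1115 CPM and in PB 3975 against 1233 CPM. At 2500 UMIs per cell, S cells held a mean of 11.9 ± 5.88 replication UMIs in AT (SD over 90 cells), 12.3 ± 6.50 in BM (165 cells) and 10.1 ± 6.16 in PB (51 cells). Zero cells held 2.93 ± 2.04, 2.84 ± 2.12 and 3.11 ± 2.04, so that the ratio of the means was 4.06, 4.33 and 3.24. Mitotic cells held means of 11.45, 14.83 and 12.91, so that replication UMIs did not set S cells apart from mitotic cells. Of S cells, 94.4%, 94.5% and 94.1% held 3 or more, against 51.6%, 48.5% and 56.1% of zero cells, so that S cells were higher as a class while their ranges overlapped with those of zero cells. At this equal depth S cells also had more genes detected, with medians of 1074, 1167 and 1087 against 996, 1104 and 1015.

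**Figure D1:**
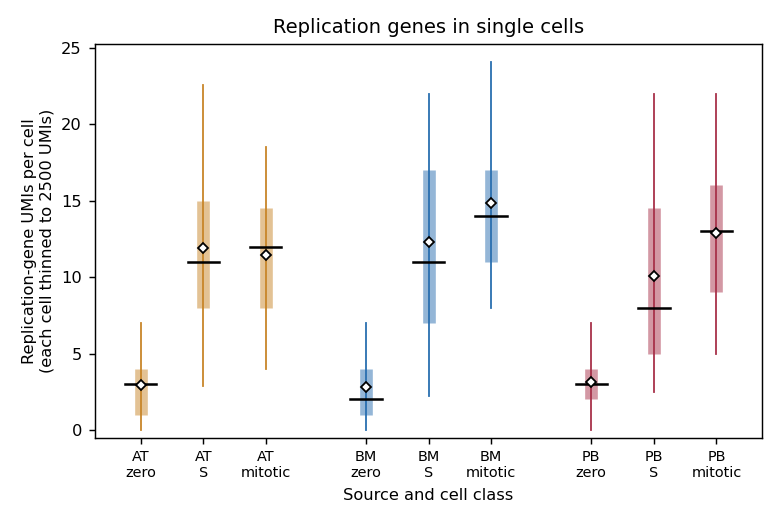
Replication-gene UMIs per cell (vertical axis, counts in cells thinned to 2500 UMIs) in zero, S and mitotic cells of AT, BM and PB. Thick bars span the quartiles, thin lines the 5th to 95th percentile, black lines are medians and diamonds means. S cells have medians of 11, 11 and 8, mitotic cells of 12, 14 and 13, and zero cells of 3, 2 and 3.

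In AT and BM the replication sum was higher at each step of rule UMIs, while in PB it was not. Just outside the threshold, at 3 UMIs of *PCNA* and *MCM5*, it was 2837 CPM in 72 AT cells, 2710 in 132 BM cells and 1591 in 83 PB cells. Just inside, at 4 UMIs, it was 3407 in 33 cells, 3501 in 57 cells and 3107 in 23 cells. At 8 or more UMIs it was 6012, 6228 and 6291 CPM, in 19, 39 and 6 cells. In PB the order was broken at 3 UMIs, which followed 1606.5 CPM in 349 cells at 2 UMIs, and at 5 UMIs, where 8 cells gave 2444 CPM. Every PB point above 4 UMIs and every AT point above 5 rests on fewer than 20 cells. On the mitotic side, cells of at least 4 rule UMIs with 2 mitotic UMIs, which are just outside, held 5599, 6013 and 5699 CPM, against 5281, 5418 and 4717 for S cells with 1 mitotic UMI and 4510, 3918 and 3279 for S cells with none.

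**Figure D2:**
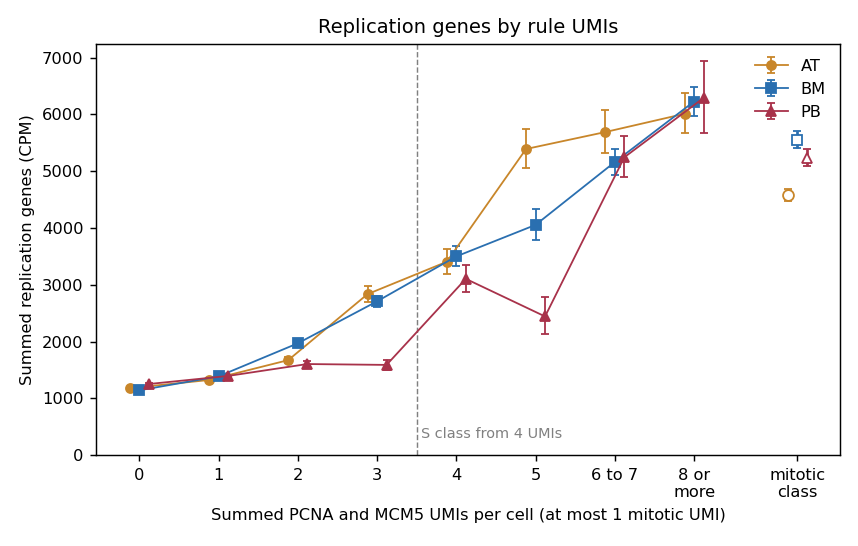
Summed CPM of the replication genes (vertical axis) against the summed *PCNA* and *MCM5* UMIs of a cell (horizontal axis) among kept cells with at most 1 mitotic UMI, for AT, BM and PB. Error bars are exact 95% Poisson intervals, the dashed line marks the threshold of S cells, and open symbols show the mitotic cells. AT goes from 1182 CPM at 0 UMIs to 6012 at 8 or more, and PB has dips at 3 and 5 UMIs.

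Genes were then compared one at a time. A total of 9421 genes outside the rule reached 2 CPM over all kept cells in each library, and a gene was counted when its log2 ratio of (CPM + 1) of S over zero cells was at least 1, or at most -1, in each of the 3 libraries. By this criterion 234 genes (2.48% of those considered) were higher in S cells and 17 (0.18%) were lower. In each library taken alone the higher share was 6.73% in AT, 5.48% in BM and 6.89% in PB, and the lower share 5.43%, 2.87% and 7.28%. The 95% interval of the fold lay above 1 in all 3 libraries for 207 of the 234 and below 1 for 6 of the 17. These genes were chosen by the same counts, so the intervals describe counting error and are no separate support. At 1.5-fold, 532 were higher (5.65%) and 127 lower (1.35%). Among the 3895 genes of at least 20 CPM in each library, 59 were higher (1.51%) and 4 lower (0.103%). The median ratio of all genes considered was 0.10, 0.07 and 0.08 on the log2 scale. With TMM scaling it moved by -0.19, -0.15 and -0.24, so that small differences are given beside these medians.

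Of the replication genes, 69 passed the level of 2 CPM and 56 of these were at least 2-fold higher in S cells of every library, where 2.48% of all genes were. All 69 were above 0 in AT and BM and 66 in PB. Of all genes considered, 57.1%, 55.6% and 55.5% were above 0 in AT, BM and PB. The median ratios of the replication genes were 2.39, 2.39 and 2.11. None was lower by the criterion. The 15 replication genes under 2 CPM are not in these counts. The members of these lists were chosen with earlier results of these libraries known.

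Origin licensing had 10 members at that level, 9 of them higher, with medians of 2.95, 2.69 and 2.71. *MCM3* (chromosome 20 of EquCab3.0), a subunit of the replicative helicase, had 63.9 CPM in S cells of AT, 78.7 in BM and 63.4 in PB. In zero cells it had 2.21, 3.43 and 2.27 CPM, a fold of 28.9 (18.8 to 44.7), 22.9 (16.3 to 32.7) and 27.9 (17.4 to 44.5). The intervals of the 3 sources overlapped for *MCM3*, both for its level in S cells and for its fold. At 2500 UMIs per cell it was seen in 14.4%, 13.9% and 15.7% of S cells and 0.475%, 0.900% and 0.710% of zero cells, and at their own depths in 40.0%, 43.6% and 41.2% and in 1.43%, 2.06% and 1.60%. *MCM2* and *MCM4*, of the same ring, had log2 ratios of 3.87, 3.50 and 3.98 and of 4.02, 3.48 and 3.68. *MCM5* of this ring is a rule gene and was left out. The other ring subunits outside the rule, *MCM6* and *MCM7*, started from higher levels in zero cells (21.7, 22.7 and 17.1 CPM for *MCM6*). They had ratios of 3.04, 2.62 and 2.92 and of 2.38, 1.84 and 2.03. *CDC6*, the loading factor, had 27.0, 29.0 and 14.9 CPM in S cells and 0.808, 1.58 and 0.691 in zero cells. *CDT1*, its partner, had ratios of 2.85, 2.76 and 2.50, and *GMNN*, whose product geminin holds CDT1 back after origins have fired, had 1.98, 1.67 and 1.33. *ORC6* of the origin recognition complex had 2.17, 2.39 and 2.11. *DBF4*, the activator of the kinase that fires origins, was the exception with 1.45, 1.26 and -0.04, and its level in mitotic cells was 110, 107 and 105 CPM against 30.7, 31.8 and 11.2 in S cells.

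Of fork and checkpoint genes 21 of 25 were higher (medians 2.33, 2.55 and 2.34). *CLSPN* (chromosome 2), which couples the stalled fork to the checkpoint kinase CHEK1, had the highest ratio in the list. It had 37, 84 and 17 UMIs in S cells, or 45.5, 58.0 and 31.7 CPM, against 4, 14 and 8 UMIs or 0.216, 0.961 and 0.395 CPM in the far more numerous zero cells. Its log2 ratios were 5.26, 4.91 and 4.55. *POLA2*, of the primase complex, had ratios of 3.84, 3.51 and 3.70. *FEN1*, the flap nuclease of Okazaki fragments, had 3.72, 3.62 and 3.12, and *TIMELESS*, of the fork protection complex, 3.75, 2.96 and 2.93. The 4 members not counted were *GINS3*, *RFC1*, *RPA1* and *RPA3*. *RFC1*, the large subunit of the clamp loader, had 0.79, 0.45 and -0.27 while the small subunits *RFC2*, *RFC3*, *RFC4* and *RFC5* all passed 1 in each library.

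Genes of deoxynucleotide supply were higher in 6 of 8 cases (medians 2.35, 1.99 and 2.05). *RRM2*, the S-phase subunit of ribonucleotide reductase, had 74.9, 64.9 and 44.8 CPM in S cells and 3.29, 5.77 and 3.85 in zero cells. Its S-cell level in AT (57.3 to 96.3) overlapped in its interval with those in BM (52.5 to 79.4) and PB (28.7 to 66.6). *TYMS*, thymidylate synthase, had 156, 148 and 138 CPM against 23.7, 35.5 and 32.7. *TK1* and *DTYMK*, the kinases that make thymidine nucleotides, had ratios of 2.60, 2.21 and 2.50 and of 2.48, 2.41 and 2.05. *SAMHD1*, which breaks deoxynucleotides down, and the nucleoside carrier *SLC29A1* stayed under 1 in BM and PB (0.72 and 0.22, and 0.06 and 0.02).

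Chromatin replication genes were higher in 9 of 11 cases (2.66, 2.45 and 2.56). *UHRF1* (chromosome 7), which brings maintenance methylation to newly copied DNA, had 47.9, 85.0 and 29.8 CPM in S cells against 0.377, 1.99 and 0.493 in zero cells. The S-cell value was highest in BM (counting interval 70.6 to 101, against 34.1 to 65.5 in AT and 17.1 to 48.4 in PB), and the difference between these single libraries was not tested. *HELLS*, a remodeller of the same pathway, had ratios of 4.49, 4.58 and 4.03. *ATAD2*, a bromodomain ATPase, had 2.66, 3.74 and 3.23. *ASF1B*, a histone chaperone, had 27.0, 19.3 and 5.59 CPM in S cells against 0.162, 0.275 and 0.0987 in zero cells, but its PB value rests on 3 UMIs. The histone variant gene *H2AFZ* was the most abundant transcript of the list and had 1318, 1310 and 1285 CPM in S cells, against 402, 359 and 536 in zero cells. The replication-dependent histone genes, whose transcripts lack a poly(A) tail and are poorly caught by this chemistry, gave 12 genes by symbol, of which 4 reached 2 CPM and none of these 4 was higher by the criterion. The median ratios of these 4 were -0.40, -0.42 and -0.09 in S cells and 1.13, 0.83 and 1.76 in mitotic cells. By the criterion 2 of the 4 were higher in mitotic cells, where 3.5% of all genes considered were. *HIST3H2BB* was below 0 in S cells of every library (-1.84, -1.02 and -0.52). Under 2 CPM, *HIST1H1B*, named after its values were seen, had ratios of 2.30, 1.62 and 1.36 from 6, 7 and 2 UMIs in S cells. *HIST1H1A* had 1.77, 0.49 and -0.53 from 3, 1 and 0 UMIs.

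Of the genes for replication-coupled repair, 11 of 15 were higher (2.46, 2.14 and 1.43). *BARD1* and *BRCA2*, of homologous recombination, had ratios of 3.43, 3.59 and 4.03 and of 3.30, 3.54 and 3.70. *DSCC1*, of the alternative clamp loader, had 3.29, 3.01 and 3.58. *UNG*, the uracil glycosylase that works at the fork, had 70.0, 67.7 and 39.2 CPM in S cells, 6.63, 5.56 and 6.46 in zero cells and 3.08, 11.0 and 6.07 in mitotic cells. *UNG* was therefore high in S cells and at or below the level of zero cells in mitotic cells of AT and PB. *PARP1*, a sensor of strand breaks, had ratios of 0.46, 0.37 and -0.32.

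**Figure D3:**
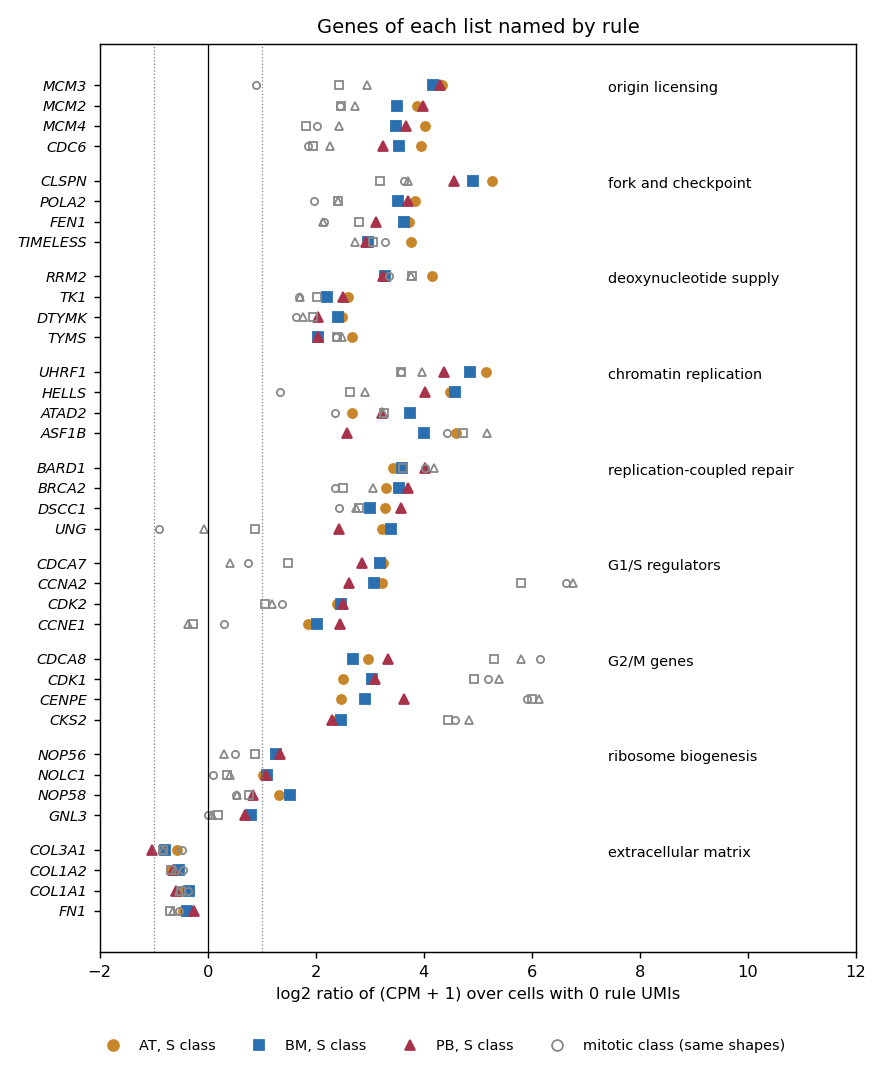
Log2 ratios of (CPM + 1) over zero cells (horizontal axis) of up to 4 genes per list, chosen by the same rule, in S cells (filled symbols by source) and in mitotic cells (open grey symbols of the same shapes). Dotted lines mark ratios of 1 and -1. The S-cell ratios of *MCM3* sit between 4.17 and 4.34, and those of *COL1A1* between -0.58 and -0.34.

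The regulators of the step from G1 to S gave 5 of 15 higher, where 2.48% of all genes considered were, and medians of 0.66, 0.97 and 0.66. *CCNE1*, the cyclin that starts S phase, had 11.1, 23.5 and 13.1 CPM in S cells, 2.32, 5.01 and 1.58 in zero cells and 3.08, 3.99 and 1.01 in mitotic cells. Its kinase partner *CDK2* had ratios of 2.39, 2.47 and 2.51. *CDCA7*, a partner of HELLS, had 3.24, 3.19 and 2.85. *CCNE2* and *E2F1* were under 2 CPM over all cells in at least 1 library and stand outside the counts, with ratios of 2.32, 3.61 and 3.44 and of 3.16, 2.57 and 2.16 from 5 to 26 UMIs and 4 to 16 UMIs in S cells. *CCNA2*, the cyclin of S and G2, had 16.0, 27.6 and 9.32 CPM in S cells and 179, 189 and 183 in mitotic cells.

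*CCND1* (chromosome 12), the cyclin D that carries growth signals to the retinoblastoma protein, was higher in value in S cells of each source. In AT it had 235 CPM in S cells (203 to 270), 25.1 in zero cells and 63.4 in mitotic cells. In BM it had 558 (520 to 598), 274 and 249 CPM, and in PB 483 (426 to 545), 141 and 189 CPM. The folds over zero cells were 9.34 (7.85 to 11.1) in AT, 2.04 (1.89 to 2.20) in BM and 3.42 (3.00 to 3.89) in PB. In value the AT fold was the highest of the 3, whereas the S-cell level was the lowest there, and these differences between single libraries were not tested. *CCND1* UMIs were found in 66 of the 90 AT S cells, and its highest cell held 5.24% of them. *CDK4*, the kinase partner of cyclin D, had 0.65, 0.51 and 0.61, and *CCND3* had 0.66, 0.97 and 1.05.

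Cell cycle inhibitors had no common direction. *CDKN1A*, the p53 target p21, had 16.0 CPM in S cells and 36.9 in zero cells of AT, 82.9 and 108 in BM, and 104 and 96.5 in PB. In PB 1 cell held 17.9% of its S-cell UMIs, and without that cell the level was 87.8 CPM, below zero cells. *CDKN2C* had a log2 ratio of 0.714 in BM and -0.692 in AT. *CDKN1C* was lower in value in every library (24.6 against 38.4, 48.3 against 87.4 and 16.8 against 24.7 CPM), with a fold interval that reached 1.30 in PB. None of 16 p53 targets and growth arrest genes met the 2-fold criterion in either direction. Of all genes considered, 2.48% met it as higher and 0.18% as lower. Of the 16, 5 were below 0 in every library, where 18.0% of all genes considered were. These were *BTG1*, *CCNG1*, *GADD45A*, *GAS1* and *SESN1*, and *CCNG1* had ratios of -0.49, -0.57 and -0.39.

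Genes of G2 and M outside the rule were also higher in S cells, to a lesser extent than in mitotic cells. Of 37, 20 were at least 2-fold higher in S cells of all libraries (medians 1.81, 2.01 and 1.61), where 2.48% of all genes considered were, and 37 in mitotic cells (4.72, 4.74 and 4.90), where 3.5% were. Zero cells held no mitotic UMI of the rule by definition. The sum of the list was 843, 1004 and 709 CPM in S cells with 0 mitotic UMIs and 1204, 1421 and 1186 in those with 1, against 325, 290 and 307 in zero cells. Each of the 37 had a lower CPM in S than in mitotic cells in all 3 libraries. S cells held at most 1 mitotic UMI and mitotic cells at least 4, so this order can follow from the rule and is given for description. *CDK1*, the mitotic kinase, had 20.9, 34.5 and 16.8 CPM in S cells, 2.86, 3.29 and 1.09 in zero cells and 139, 131 and 86.0 in mitotic cells. *CKS2*, a subunit of that kinase, had 134, 198 and 138, against 24.8, 34.9 and 27.3 and against 612, 777 and 803 CPM. *CDCA8*, of the chromosomal passenger complex, had ratios of 2.97, 2.68 and 3.33, and the kinetochore motor *CENPE* 2.47, 2.92 and 3.63. *PLK1*, a kinase of mitotic entry and exit, held 3, 2 and 1 UMIs in S cells, at or under the floor of 3 UMIs (3.68, 2.07 and 5.59 CPM), and *HMMR*, a spindle protein, held 9, 9 and 1.

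Genes of early and of later S phase outside the rule were also summed. The early S list (among them *MCM2*, *DTL*, *CDC6* and *MCM6*) summed to 444, 444 and 343 CPM in S cells, 44.1, 49.2 and 37.5 in zero cells and 159, 224 and 171 in mitotic cells. The mid and late S list (*HELLS*, *RRM2*, *ATAD2* and *CCNA2* with others) summed to 561, 575 and 464 CPM in S cells and 606, 757 and 735 in mitotic cells. The quotient of the early over the late sum was 0.790, 0.772 and 0.739 in S cells, 0.401, 0.453 and 0.331 in zero cells and 0.263, 0.296 and 0.233 in mitotic cells. The 3 classes were picked on *PCNA*, *MCM5* and the mitotic genes, and *MCM2* and *MCM6* of the early list share a ring with *MCM5*. The order of the quotients can thus follow from the rule and is given for description. In both lists, most members were higher in S cells, 8 of 8 early and 8 of 9 later genes, where 2.48% of all genes considered were. *DTL*, which directs CDT1 to degradation in S phase, had ratios of 3.27, 3.84 and 4.07.

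Mitotic cells share their zero cells with the S cells, so the 2 sets of ratios are not independent. Set against mitotic cells directly, CPM in S cells was higher for 58, 51 and 47 of the 69 replication genes, for 43 of them in all 3 libraries and for 9 in none. Of the 10 licensing genes, 9 had a higher CPM in S than in mitotic cells in every library and *DBF4* in none. S and mitotic cells were picked in opposite directions on *PCNA* and *MCM5*, and MCM5 is a subunit of the licensing helicase. These counts can thus follow from the rule and are given for description, without a share over all genes. *RRM2* (43.1, 91.7 and 64.8 CPM in mitotic cells) and *TYMS* (126, 191 and 187) were higher in mitotic cells of BM and PB than in S cells, and lower in those of AT. The replication sum in mitotic cells, 4574, 5555 and 5243 CPM, was above that of S cells in BM and PB and below it in AT. By the 2-fold criterion 45 of the 69 replication genes were higher in mitotic than in zero cells. By the same criterion against zero cells, 330 of the 9421 genes were higher (3.5%) and 22 lower (0.234%) in mitotic cells.

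**Figure D4:**
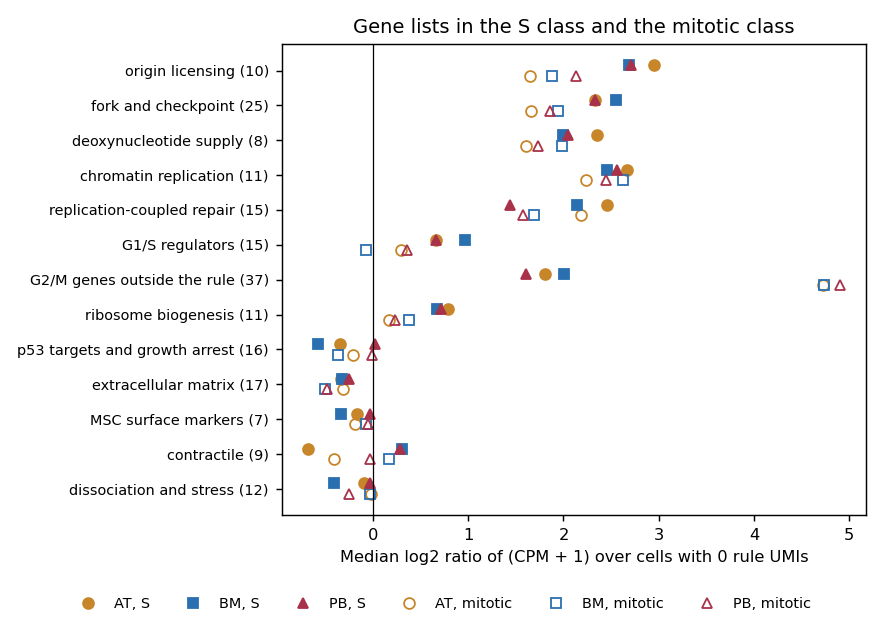
Median log2 ratio over zero cells (horizontal axis) of each gene list, with the number of genes considered in brackets, for S cells (filled) and mitotic cells (open) of each source. The replication lists have medians from 1.43 to 2.95 in S cells and from 1.58 to 2.63 in mitotic cells, so that these ranges overlap. The G2/M list has 1.61 to 2.01 in S and 4.72 to 4.90 in mitotic cells.

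Outside the lists, the 10 named genes with the highest ratios were *MIS18A*, *MND1*, *TEX30*, *SPC25*, *CENPK*, *TCF19*, *CENPM*, *MYBL2*, *MTFR2* and *SKA1*. Of the 234 genes, 84 were in one of the lists, 17 had only an Ensembl identifier and 133 were other symbols. *MIS18A*, which helps to place the centromeric histone, had 25.8, 22.1 and 20.5 CPM in S cells, 1.29, 1.17 and 0.888 in zero cells and 62.2, 58.8 and 74.9 in mitotic cells. *CENPK* and *CENPM*, proteins of the inner kinetochore, had ratios of 2.84, 2.99 and 3.33 and of 3.33, 2.79 and 2.89. *SPC25* of the outer kinetochore had 3.26, 2.85 and 3.04, and *SKA1*, a microtubule coupler, 2.73, 3.28 and 3.15. *MYBL2*, a factor that switches on cell cycle genes, had 38.1, 62.2 and 44.8 CPM against 4.69, 4.39 and 3.06. Like *MIS18A*, the genes *SPC25*, *SKA1*, *MND1*, *MTFR2* and *MYBL2* had a higher CPM in mitotic than in S cells of each library. For *SKA1* the levels were 49.8, 72.7 and 73.9 CPM in mitotic cells against 13.5, 22.8 and 14.9 in S cells. *CENPK*, *TCF19* and *CENPM* were higher in mitotic cells of BM and PB and lower in those of AT. *TEX30* alone of the 10 was lower in mitotic than in S cells of each library (11.7, 33.9 and 21.3 against 46.7, 42.8 and 31.7 CPM).

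Further genes, picked for their abundance after their values were seen, were the following. *FABP5*, a fatty acid carrier, had 136, 121 and 93.2 CPM in S cells against 10.3, 20.7 and 5.72 in zero cells, from 111, 175 and 50 UMIs. It was seen in 56.7%, 49.1% and 47.1% of S cells and 6.25%, 11.2% and 3.80% of zero cells at their own depths. *RANBP1*, of nuclear transport, had 527, 505 and 449 against 147, 171 and 150 CPM. *SIVA1* had ratios of 1.32, 1.32 and 1.34 and *HSP90AA1*, a chaperone, of 1.10, 1.10 and 1.19. *NME1*, a nucleoside diphosphate kinase, had 2.02, 1.16 and 1.20. The unnamed gene ENSECAG00000026891 on chromosome 1 had the highest ratios of the 59 abundant genes (4.32, 4.10 and 4.48).

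Of 11 ribosome biogenesis genes, 2 met the 2-fold criterion for higher levels in S cells, which 2.48% of all genes considered met. The list had 8 genes above 0 in every library, where 29.5% of all genes considered were, and medians of 0.79, 0.68 and 0.71. The nucleolar proteins *NOP56* (88.5, 74.6 and 80.2 against 35.6, 30.3 and 31.0 CPM) and *NOLC1* (49.1, 40.7 and 41.0 against 23.7, 18.5 and 18.8) met the criterion. In mitotic cells *NOP56* had 51.1, 56.8 and 38.5 CPM, between S and zero cells in each library. *NPM1*, a nucleolar chaperone, went the other way with -0.27, -0.47 and -0.27. Of the 57 cytosolic ribosomal protein genes considered, 49 were below 0 in all libraries (medians -0.16, -0.17 and -0.21) and none met the criterion. Across all genes 18.0% were below 0 in all libraries.

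The number of genes lower in S cells, 17 here, moved with the settings, from 0 with at least 3 rule UMIs to 104 with at least 6, and was 33 with TMM scaling, 4 with a pseudocount of 5 CPM and 47 in S cells with 0 mitotic UMIs. Of the 17, 12 had 3 or fewer UMIs in S cells of at least 1 library and 9 had 0, so that most of the lower calls rest on few UMIs in at least 1 library. *NUPR1* (chromosome 13), a stress-induced nuclear protein, was the clearest by counts. It had 319, 85.6 and 244 CPM in S cells from 260, 124 and 131 UMIs and 793, 339 and 607 CPM in zero cells, a log2 ratio of -1.31, -1.97 and -1.31. In mitotic cells it had 503, 80.7 and 334 CPM, between the other classes in AT and PB. *YPEL3* had 44.2, 55.3 and 33.6 CPM against 119, 124 and 77.2. *PTGFR*, the prostaglandin F receptor, had 6.14, 11.7 and 13.1 against 22.2, 33.2 and 30.1, from 5, 17 and 7 UMIs. ENSECAG00000030777 on chromosome 21 had ratios of -1.42, -1.55 and -1.41. Other named genes of this direction included *PODNL1*, *ISLR*, *LHFPL2*, *FAM171B*, *DPT* and *DCLK1*. *ISLR*, a stromal protein, had 9.83, 23.5 and 1.86 CPM against 36.1, 78.7 and 6.17. *DPT*, a matrix protein, had 2.46, 15.2 and 24.2 against 9.27, 36.2 and 90.8, but 1 BM cell held 59.1% of its UMIs there and without that cell the BM level was 6.27 CPM. *IFITM5*, an osteoblast gene, was the single listed gene among the 17, with 4.91, 4.14 and 9.32 against 14.5, 21.8 and 37.0 CPM.

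None of 17 genes of the extracellular matrix, a major product of MSCs, met the 2-fold criterion. Of all genes considered, 2.48% met it as higher and 0.18% as lower. Of the 17, 9 were below 0 in all libraries, where 18.0% of all genes considered were, and the medians were -0.33, -0.32 and -0.25. *COL3A1* (chromosome 18) had 1998, 1133 and 1201 CPM in S cells and 2963, 1955 and 2469 in zero cells, a fold of 0.674 (0.641 to 0.708), 0.580 (0.551 to 0.609) and 0.486 (0.449 to 0.526). *COL1A2* had 4602, 3204 and 4997 against 7379, 4660 and 7780 CPM, *COL1A1* log2 ratios of -0.49, -0.34 and -0.58, and *FN1*, fibronectin, of -0.46, -0.38 and -0.25. Mitotic cells had *COL1A2* at 5363, 2897 and 5078 CPM, close to S cells. *TIMP1*, a protease inhibitor, had 0.89, -0.19 and 0.23. Of MSC surface markers, 0 of 7 met the criterion, which is near the shares of all genes. The sum of the markers was 2491.5 CPM in S cells against 2877 in zero cells of AT. It was 2016 (1944 to 2091) against 2717 (2690 to 2744) in BM and 2743 against 2751 in PB. In PB S cells, 1 cell held 19.9% of the *B2M* UMIs of this sum, and the sum without that cell was not computed. *CD44* had ratios of -0.29, -0.49 and -0.22 and *ITGB1* of 0.32, 0.19 and 0.50. *CD3E*, *CD14*, *CD79A*, *LYZ*, *PTPRC* and *SPI1* of the blood cell list had 0 UMIs in S cells of every library, for which the floor of 3 UMIs is 3.68, 2.07 and 5.59 CPM, and *CD68* had 7, 17 and 2. The endothelial list had 1 UMI of *CDH5* in BM and 1 of *PECAM1* in PB.

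S cells of a source were also compared with zero cells in the genes that set the sources apart, which had been chosen on these libraries. All 18 were highest in their own source both in zero cells and in S cells. The median log2 distance from the next source was 2.73 in zero cells and 2.00 in S cells. In AT, all 5 of its genes were lower in value in S cells, where 42.9% of all genes considered were. Of the 5, 2 reached 2 CPM in every library. *DES*, the muscle intermediate filament desmin, had 49.1 CPM against 205 and *MFAP4*, a microfibril protein, 39.3 against 200. *IGFBP5* had 160 against 252 and *ADM*, the vasodilator adrenomedullin, 407 against 746. *DES* UMIs were found in 20 of 90 AT S cells (22.2%) and 1076 of 2735 zero cells (39.3%), although the zero cells were shallower. With zero cells weighted to the depth of S cells the *DES* ratio went from -2.04 to -2.33.

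In BM, *JAM2*, an adhesion protein of cell junctions, had 378 CPM in S cells and 537 in zero cells, and was found in 120 of 165 and in 1993 of 2334 cells. *CGA*, the glycoprotein hormone alpha subunit, was higher, with 492 against 332 CPM. Its ratio was 1.66 in AT, 0.57 in BM and 2.03 in PB, so that it was higher in S cells of all 3 sources. *TAGLN3* had 176 against 94.6 CPM and *MGLL* 231 against 206 CPM in BM. Lower in value in BM S cells, like *JAM2*, were *COL8A1* (96.0 against 129 CPM), *WDR86* (227 against 332.5) and *FAM20A* (44.2 against 87.0). Of all genes considered, 44.4% were below 0 in BM. *IGFBP5*, an AT gene, was found in 17 of 165 BM S cells and 20 of 2334 BM zero cells, and 13 of the 17 and 13 of the 20 had no *JAM2* UMI. The 17 S cells carried 28 UMIs in all and the highest held 17.9% of them. *IBSP*, a bone matrix gene, was found in 1 of 165 BM S cells, with 1 UMI, and in 182 of 2334 BM zero cells (7.80%). In PB, 5 of its 6 genes were lower in value in S cells, where 44.5% of all genes considered were. *ALPL*, alkaline phosphatase, had 200 against 348 CPM and *ASPN*, asporin, 227 against 446. *MSX1* went the other way with 83.9 against 74.0 CPM. *CRABP2*, a retinoic acid carrier, had 386 against 542 in PB and 256 against 169 in BM, and its distance between PB and BM was 0.59 in S cells and 1.68 in zero cells.

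**Figure D5:**
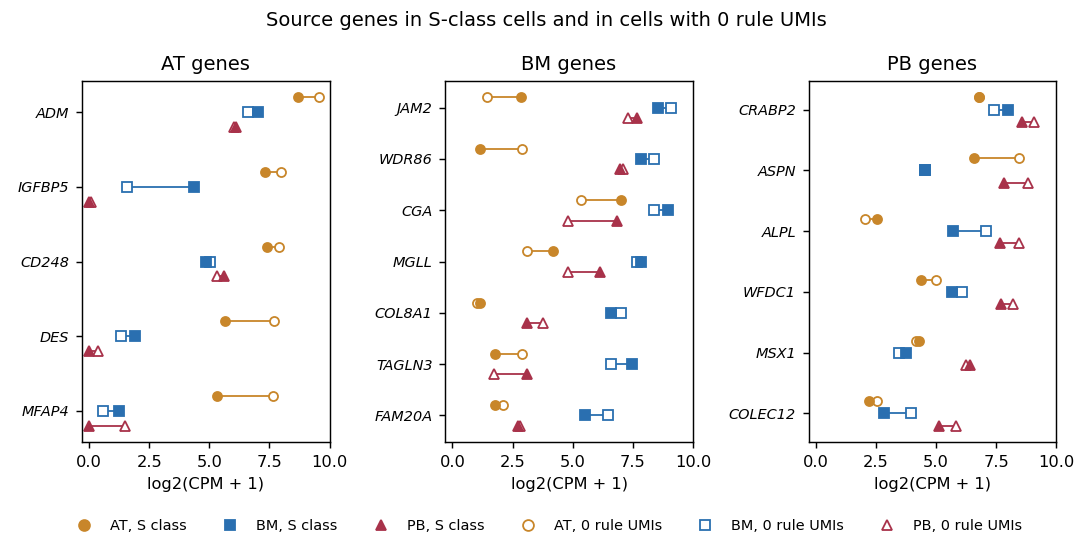
Levels as log2(CPM + 1) (horizontal axis) of 18 source genes in S cells (filled) and zero cells (open) of AT, BM and PB, joined by a line for each library. *DES* and *MFAP4* in AT and *IGFBP5* in BM show the longest lines in the AT panel, and the own source stays highest in S cells for each gene.

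Contractile genes had different signs in the 3 libraries, a difference that was not tested. All 9 considered were below 0 in AT (median -0.68), and 8 of 9 were above 0 in BM (0.31) and in PB (0.28). Of all genes considered, 42.9% were below 0 and 57.1% above in AT, 44.4% and 55.6% in BM and 44.5% and 55.5% in PB. With TMM scaling these numbers were 9, 5 and 7, so the sign of several BM genes is not firm. *ACTA2*, smooth muscle actin, had 394 against 743 CPM in AT, 1032 against 714 in BM and 880 against 577 in PB. *MYL9*, myosin light chain, had 302 against 682, 567 against 533 and 420 against 351. *ACTG2*, enteric smooth muscle actin, had 316 CPM in S cells of AT, 266 in BM and 220 in PB, and 379, 82.2 and 22.1 in zero cells. S cells of the 3 sources were thus closer to each other in *ACTG2* than zero cells were. In PB 1 cell held 17.8% of its S-cell UMIs, and without that cell the level was 185 CPM. *CCL26*, a chemokine, had 361, 340 and 198 CPM in S cells against 63.9, 211 and 35.0.

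Some genes were higher or lower in S cells of 1 source beyond the other two. Among genes of at least 20 CPM the widest such gaps were chosen, 3 per source and direction, and they are given without a test. In AT, *CCND1* (above), *ERRFI1* (1.01 against -0.33 and -0.59) and *FYN* (0.32 against -0.92 and -0.98) stood above the others, and *ACTG2*, *ECM1* (-1.50 against 0.18 and 0.24) and *CNN1* below. In BM, *RGS10*, *RSRC1* and *ZNF148* stood above, with 1.17, 1.15 and 0.18, and *CCL26*, *ISG15* and *ITGB5* below, with 0.68, -1.08 and -1.13. In PB, *SQSTM1* (0.77), *ACTG2* (3.26) and *CTSK* (1.36) stood above, and *NAT14*, *OCEL1* and *PNPLA8* below, with -2.42, -1.36 and -0.90. For *CTSK*, a cathepsin, 1 of the 51 PB cells held 48.2% of the UMIs, and without it the level was 167 CPM against 123 in zero cells. The PB value of *NAT14* rests on 2 UMIs. For *ISG15*, 1 cell held 75.7% of the UMIs in PB and 1 cell 48.4% in AT, and without them the levels were 17.2 CPM in PB and 19.8 in AT, against 51.5 and 23.9 in zero cells, so that without these cells AT and PB were also below zero cells.

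Across the 3895 genes of at least 20 CPM, the log2 ratios of the libraries correlated with Pearson's r of 0.686 for AT and BM, 0.605 for AT and PB and 0.679 for BM and PB (Spearman's rho 0.637, 0.551 and 0.615). These are correlations across genes, which are not independent, and the classes of each library share its depth and cell numbers.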

How the data were processed

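The authors assigned reads to barcodes and aligned them to EquCab3.0 with Cell Ranger, and counted UMIs per gene with ESAT. The deposited matrices hold raw UMI counts of every gene in every barcode, with a chromosome and strand but no start and end for each gene. From 11757, 6455 and 6180 barcodes of AT, BM and PB, 5403, 5580 and 5318 were kept, with 39980656, 40239295 and 41622445 UMIs. The authors' multiplet caller was not run, and the upper UMI bound is the one guard against doublets here.

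UMIs were summed per class and library, and log2 ratios of (CPM + 1) were computed with Python 3.11.15, NumPy 2.4.6 and SciPy 1.17.1. edgeR 4.0.16 (R 4.3.3) gave TMM factors only. 1 UMI in S cells was worth 1.23, 0.690 and 1.86 CPM. The computation was tested on simulated counts. Cells were thinned without replacement, and weighting by depth used bins of 1000 UMIs. The members and gene lists were chosen with earlier results of these data known. Named genes were up to 4 per list and 10 per direction outside the lists with the largest ratio in the least changed library, and up to 3 per library that differed most from the other libraries. Genes named otherwise are described as such, or are list members shown to complete a group, and 1 gene the rule names is not reported here. Sequences were not used here.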

Additional observations from a re-analysis of the deposited data

Results flagged for a closer look

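In 4 listed genes of at least 20 CPM, S cells stood above zero cells by 1.5-fold or more in 1 library and below them by as much in another. The difference between the libraries was not tested, since each source had a single library. *ACTA2* had a log2 ratio of 0.608 in PB and -0.913 in AT, and *CNN1*, calponin, of 1.28 in PB and -0.819 in AT. *CDKN2C*, an inhibitor of CDK4, had 0.714 in BM and -0.692 in AT. *ISG15*, an interferon-induced gene, had 0.652 in AT and -1.08 in BM, but 1 cell held 48.4% of its UMIs in AT S cells, and without that cell the level was 19.8 CPM against 23.9 in zero cells. Above the upper limit of 15000 UMIs, which was not part of any comparison, 10 BM and 13 PB barcodes also met the rule for S cells.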

How the results depend on the processing

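With TMM scaling the median ratio changed sign for mitochondrial genes in BM and PB, interferon genes in AT and PB, p53 targets in PB and AT source genes in BM and PB, as did *CD68* in BM. The 234 higher, 17 lower and 56 higher replication genes became 148 higher and 4 lower with a pseudocount of 5 CPM, and 59, 4 and 10 among genes of at least 20 CPM. Lower genes numbered 42 without a filter beyond 1 UMI, 33 with TMM, 46 below 10000 UMIs and 104 with at least 6 rule UMIs. With at least 3 rule UMIs 143 genes were higher and 0 lower, with 0 mitotic UMIs 143 and 47, and at 1.5-fold 532 and 127. Without each library in turn, 289 to 326 genes were higher, 64 to 108 lower, and 57 to 65 replication genes higher. Depth-weighted zero cells kept 217 of the 234 and 14 of the 17. The shares in AT, BM and PB were 0.315%, 0.896% and 0.132% thinned to 2500 UMIs, 3.00%, 5.32% and 2.52% with at least 3 rule UMIs, 0.666%, 1.49% and 0.376% with at least 6, and 0.833%, 1.31% and 0.508% with 0 mitotic UMIs. Thinned to 5000 UMIs, among kept cells with at least 5000, AT had 1.18% and PB 0.525%, and below 10000 UMIs PB had 0.459%. The causes were not tested. Without barcodes found in more than 1 matrix, no PB cell and hence no count over 3 libraries remained; the alternative without barcodes kept in more than 1 library was chosen after seeing the data. Of the 17 lower genes, 12 rest on 3 or fewer UMIs in a library. The ratios are paired within each library, and no paired test over the 3 libraries was made, since S and zero cells were told apart by UMIs of the same cells.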

Other observations

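Of 24 mitochondrial genes at 2 CPM or more, 10 were above 0 and 3 below 0 in S cells of all libraries, where 29.5% and 18.0% of all genes considered were. Their medians were 0.30, 0.08 and 0.23 in AT, BM and PB, and 0.10, -0.08 and -0.02 with TMM scaling, so that the sign changes in BM and PB. S cells had a median of 1.75%, 1.98% and 1.62% mitochondrial UMIs against 1.39%, 1.96% and 1.55% in zero cells. Dissociation and stress genes gave 0 of 12 higher by the 2-fold criterion, where 2.48% of all genes considered were. In every library 5 of the 12 were below 0, *DDIT3* and *ATF4* included, and 3 above 0, *HSPA1A* and *DNAJB1* included. Interferon response genes gave 0 of 5 in either direction, where 2.48% of all genes considered were higher and 0.18% lower. The medians of these 5 were 0.08, -0.39 and 0.04, of which the AT and PB values turn negative with TMM scaling. No gene of the endothelial, adipocyte or chondrocyte lists reached 2 CPM in every library. Of the blood cell list *CD68* alone did, with ratios of 0.26, 0.01 and -0.02 that became 0.09, -0.14 and -0.22 with TMM scaling.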
